A study of Oryza sativa with 20 samples.

Results

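Transcript levels of 8 rice genes from the starch synthesis route of the leaf were followed in the lamina joint and the blade. The genes were GBSSII (OS07G0412100), AGPS2 (OS08G0345800), AGPL3 (OS03G0735000), SSI (OS06G0160700), SSIIb (OS02G0744700), BEI (OS06G0726400), BEIIa (OS04G0409200) and PHOL (OS03G0758100). They were taken by gene ID and are 8 of the 37829 rice gene IDs listed in each library. The lamina joint (LJ) links the leaf's blade to its sheath, and the angle at which the blade leans out depends on how far it bends. LJ pieces under 1 mm and blade pieces under 10 mm long were cut from seedlings, from the leaf that was their first complete one, at stages S1 to S5, from the time the organ forms to the time its angle is set. Every group of rice plants (Oryza sativa) was grown in water with 16 h of light at 28 °C and 8 h of dark at 25 °C, and the labels name no cultivar, mutant or treatment. The days of collection were 4, 5, 6, 7 and 9 after germination, but the labels tie none of them to a stage and give no hour of harvest. The 5 stages of 2 tissues gave 10 groups of 2 libraries each, 20 in all. Whether the 2 libraries of a group stem from different plants is not stated in the labels, so a p-value here covers the spread between libraries alone, and that spread may be technical.

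Leaves store part of the sugar fixed by day as transitory starch in the chloroplast and break it down at night. ADP-glucose pyrophosphorylase, built of small subunits such as AGPS2 and large subunits such as AGPL3, makes the sugar donor ADP-glucose. Soluble starch synthases such as SSI and SSIIb lengthen the chains of amylopectin, the granule-bound synthase GBSSII makes the nearly unbranched amylose, and the branching enzymes BEI and BEIIa put in the branch points. PHOL is the plastidic starch phosphorylase, which can add glucose to the end of a glucan chain or remove it. Further genes of the same families serve the endosperm, the storage tissue of the grain, and the 8 are not taken here as particular to the leaf. The RefSeq annotation (assembly ASM3414082v1) carried AGPS2, SSI, SSIIb (as SSII-2) and BEI (as Sbe1) on the chromosome and near the place in gene order that the ID gives. The names GBSSII, AGPL3, BEIIa and PHOL rest on the member list alone. By their IDs the genes lie on chromosomes 2 (SSIIb), 3 (AGPL3 and PHOL), 4 (BEIIa), 6 (SSI and BEI), 7 (GBSSII) and 8 (AGPS2).

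All levels are FPKM, fragment counts scaled to transcript length and library size, so they can be set side by side between genes. The reads behind them are not given, so the depth is unknown. Differences are of log2(FPKM + 1) with the standard error (SE) of a limma fit over 26403 genes that reached 1 FPKM in at least 2 libraries, and all 8 genes were among these. Genes whose p, adjusted over all 26403 by the Benjamini-Hochberg method, was under 0.05 are named as called. Overlaps of libraries and counts of pairs are given as descriptions alone. The share of all tested genes without overlap, or with the same direction in as many pairs, was not computed. FPKM totals ran from 860684 to 1079325 per library and between 18265 and 21695 genes reached 1 FPKM. Blade S4 replicate 2 stood apart in composition, with 44.2% of its FPKM in 50 genes and a median of 0.849 FPKM, against 27.3% and 1.182 in replicate 1. The lamina joint regulators LG1 and DL were higher in the LJ in 10 of 10 pairs of the same stage and replicate number, and Rubisco activase (RCA), a marker of photosynthetic tissue, was lower in the LJ in 10 of 10. Of 9 IDs listed as tissue markers, 3 were called higher and 6 lower in the LJ (28.3% and 15.1% of all genes). Of the 9, 4 matched a symbol in the annotation (LG1, DL, RCA and OSH1), so among those lower RCA alone is named. The meristem gene OSH1 reached 11.0 FPKM in LJ S1 replicate 1 and was listed at 0.297 FPKM or less in every library after S1. In these bulk pieces, fewer cells of a type and less RNA per cell cannot be told apart.

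The ADP-glucose large subunit AGPL3 was called lower in the LJ than in the blade over the 5 stages, by 0.94 on the log2 scale. The chain-lengthening enzyme SSI was called higher, by 0.48. From S1 to S5 AGPL3 and the branching enzyme BEI rose in both tissues, while SSI and the phosphorylase PHOL fell in both, PHOL from 15.1 to 26.8 FPKM at S1 to 1.05 FPKM or less at S5. The second branching enzyme, BEIIa, fell in the LJ. The granule-bound synthase GBSSII was called in no comparison, and its 2 libraries of a group differed more than those of nearly any other gene. AGPS2 and SSIIb changed over the stages by no amount that passed the test. Read against all genes these counts are ordinary or low. For the tissue difference 2 of 8 genes were called, where 43.3% of all tested genes were. With LJ and blade paired by replicate number within a stage, AGPS2 and SSIIb were called lower in the LJ as well, making 4 of 8, where the paired fits called 59.9% (random block) and 59% (fixed pairs) of all genes. From S1 to S5, 5 of 8 were called in the LJ, where 65.8% of all genes were, and 4 of 8 in the blade, where 62.7% were.

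**Figure D1:**
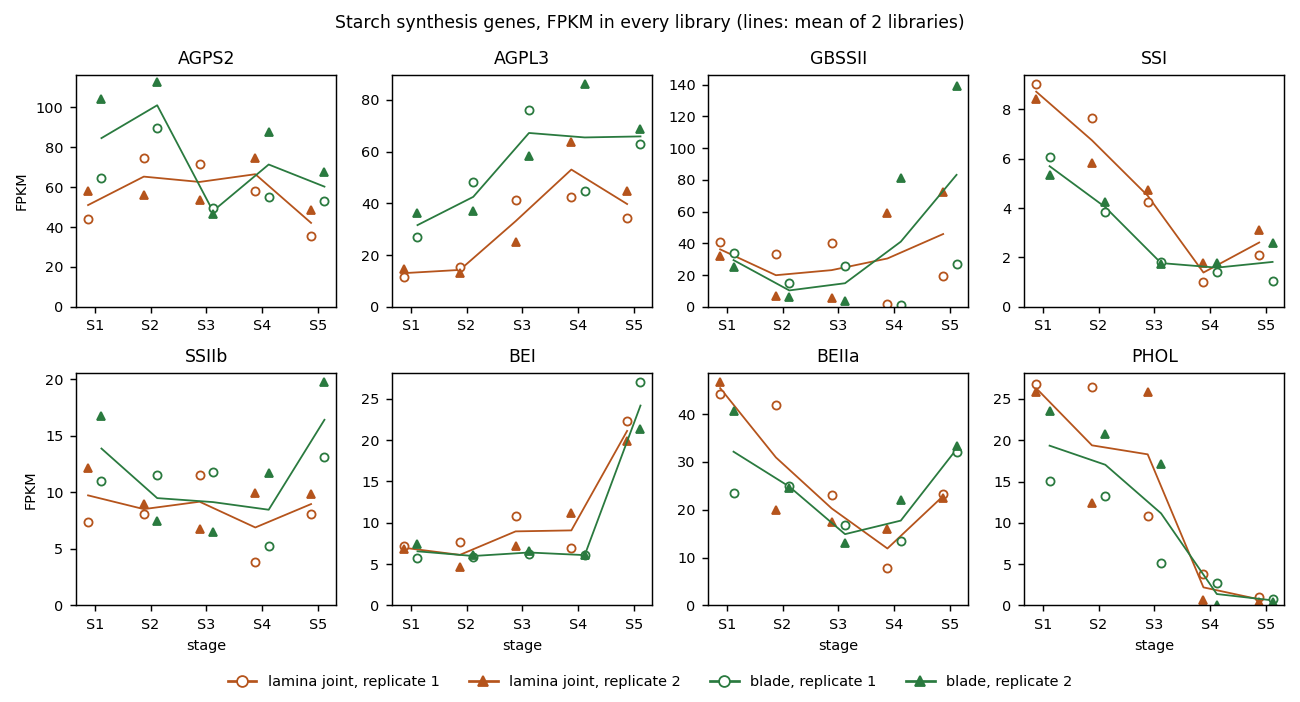
FPKM (linear axis from 0) of each of the 8 genes at stages S1 to S5, with 1 panel per gene. Each point is 1 library (brown, lamina joint; green, blade; open circle, replicate 1; filled triangle, replicate 2) and each line joins the means of 2 libraries. AGPL3 is lower in brown than in green, BEI steps up at S5 and PHOL drops at S4. At S3 and S4 the GBSSII points lie farther apart between replicates than between tissues.

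AGPS2, the small subunit, was the most abundant transcript of the set in 14 of 20 libraries. In the LJ it stood at 44.1 and 57.9 FPKM at S1 (replicates 1 and 2, the order used throughout), 74.7 and 55.8 at S2, 71.4 and 53.8 at S3, 58.2 and 74.7 at S4, and 35.4 and 48.7 at S5. Blade AGPS2 stood at 64.7 and 104 FPKM at S1, 89.5 and 113 at S2, 49.4 and 46.6 at S3, 55.0 and 87.7 at S4, and 53.1 and 67.4 at S5. Both blade libraries lay above both LJ libraries at S1, S2 and S5, the order was the opposite at S3, and the tissues overlapped at S4. Over the 5 stages AGPS2 was 0.31 lower in the LJ (SE 0.14, adjusted p 0.0992), lower in 7 of 10 pairs, and was not called. With LJ and blade paired by replicate number within a stage the same difference was called (adjusted p 0.0164 with the pairs as a random block, 0.0163 with fixed pairs), as were those at S1 (−0.69, adjusted p 0.0285 and 0.0282) and S2 (−0.63, adjusted p 0.0381 and 0.0359). Upper quartile scaling also brought the mean difference past the threshold (adjusted p 0.0485), as did leaving out blade S4 replicate 1 (0.04). From S1 to S5 AGPS2 differed by −0.28 in the LJ (adjusted p 0.471) and −0.45 in the blade (adjusted p 0.239). The rice gene is known to give a plastidic and a cytosolic form through different first exons, which a value per gene does not separate.

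AGPL3, the large subunit, differed most clearly by tissue. In the LJ it was listed at 11.5 and 14.6 FPKM at S1, 15.5 and 13.0 at S2, 41.1 and 25.0 at S3, 42.2 and 63.8 at S4, and 34.5 and 44.9 at S5. The blade held 26.9 and 36.3 FPKM at S1, 48.1 and 36.9 at S2, 76.1 and 58.2 at S3, 44.9 and 86.0 at S4, and 62.8 and 68.9 at S5. The tissues did not overlap at S1, S2, S3 and S5, and at S4 LJ replicate 2 lay between the blade libraries. Within pairs LJ was lower in 10 of 10, by 0.08 to 1.57 on the log2 scale. The mean difference was −0.94 (SE 0.16, adjusted p 0.000327), and leaving out any 1 of the 20 libraries kept it called, with adjusted p at most 0.0012. Among single stages it was called at S1 (−1.21, SE 0.35, adjusted p 0.0281) and S2 (−1.50, SE 0.35, adjusted p 0.00701), the LJ means being 2.43-fold and 2.98-fold lower. The call at S1 was lost without any 1 of the 4 S1 libraries (adjusted p 0.0566 to 0.191) and under upper quartile scaling (0.0561). That at S2 was lost without blade S2 replicate 1 (0.0651) and when only the S2 libraries were fitted (0.0624). At S3 it missed the threshold (−1.03, adjusted p 0.0563), but passed with the pairs as a random block (0.00269) or fixed (0.00188), without LJ S3 replicate 1 (0.0431), blade S4 replicate 1 (0.0302) or blade S4 replicate 2 (0.0301), and without both S4 replicate 2 libraries (0.0218). At S5 (−0.73, adjusted p 0.26) it passed with the paired fits alone (0.0316 random, 0.015 fixed).

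AGPL3 rose from S1 to S5 in the LJ by 1.54 (SE 0.35, adjusted p 0.00132), a 3.05-fold higher mean, and in the blade by 1.05 (SE 0.35, adjusted p 0.0165), a 2.09-fold higher mean. Neither tissue's S5 libraries overlapped its S1 libraries. Without blade S1 replicate 1 the blade rise was 0.84 (adjusted p 0.119) and without blade S5 replicate 2 it was 0.99 (0.0767), both short of the threshold. The rises did not differ detectably between tissues (difference 0.48, SE 0.49, adjusted p 0.617). In the LJ the step from S2 to S3 was called (1.12, SE 0.35, adjusted p 0.0306). It was lost without LJ S2 replicate 1 (0.0721), LJ S2 replicate 2 (0.143) or LJ S3 replicate 1 (0.289), and under upper quartile scaling (0.094), quantile normalization (0.0997) or a fit of those groups only (0.112). The ratio of AGPL3 to AGPS2 FPKM moved from 0.2603 and 0.2512 in LJ S1 to 0.9735 and 0.9225 in LJ S5. Blade ratios went from 0.4149 and 0.3473 at S1 to 1.182 and 1.022 at S5, and were highest at S3, at 1.541 and 1.251. AGPS2 lay above AGPL3 in 16 of 20 libraries, and the 4 exceptions were the blade libraries of S3 and S5.

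SSI, which lengthens the short chains of amylopectin, was among the least abundant of the set and faded with stage. LJ values were 9.01 and 8.43 FPKM at S1, 7.65 and 5.85 at S2, 4.25 and 4.75 at S3, 1.01 and 1.77 at S4, and 2.11 and 3.10 at S5. In the blade SSI stood at 6.07 and 5.33 FPKM at S1, 3.84 and 4.23 at S2, 1.83 and 1.72 at S3, 1.41 and 1.76 at S4, and 1.06 and 2.58 at S5. The LJ libraries lay above the blade libraries at S1, S2 and S3, and the tissues overlapped at S4 and S5. LJ was higher in 9 of 10 pairs, with S4 replicate 1 the exception. The mean difference of 0.48 (SE 0.12, adjusted p 0.00562) stayed called under every alternative run, with adjusted p at most 0.0373. At S3 the LJ was 0.99 higher (SE 0.27, adjusted p 0.0227), a 2.54-fold higher mean. This call was lost without any 1 of the 4 S3 libraries (adjusted p 0.0569 to 0.143), under upper quartile scaling (0.0594) or quantile normalization (0.058), and when only the S3 libraries were fitted (0.0836). With paired tissues SSI was also called at S2 (0.61, adjusted p 0.0195 random and 0.0348 fixed) and, with the random block, at S1 (0.54, adjusted p 0.0426).

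SSI fell from S1 to S5 by 1.44 in the LJ (SE 0.27, adjusted p 0.000281) and by 1.30 in the blade (SE 0.27, adjusted p 0.000746), means 3.35-fold and 3.13-fold lower. Leaving out any 1 library kept both calls, with adjusted p at most 0.0184. The LJ fell by 1.22 from S3 to S4 (SE 0.27, adjusted p 0.00206), where the blade mean moved from 1.77 to 1.59 FPKM. The difference between these steps was −1.12 (SE 0.38) and was not called (adjusted p 0.119), but it was called with the pairs as a random block (0.0115, where 15.5% of all genes were called) or fixed (0.0272, 14.6%). In the blade the step from S2 to S3 was −0.86 (adjusted p 0.0565).

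SSIIb, a second soluble synthase, lay above SSI in 19 of 20 libraries. LJ values were 7.34 and 12.1 FPKM at S1, 8.11 and 8.94 at S2, 11.6 and 6.78 at S3, 3.82 and 9.98 at S4, and 8.08 and 9.86 at S5. Blade values were 11.0 and 16.8 FPKM at S1, 11.6 and 7.43 at S2, 11.8 and 6.51 at S3, 5.24 and 11.7 at S4, and 13.1 and 19.8 at S5. The tissues overlapped at S1 to S4, and at S5 both blade libraries were the higher. No comparison called SSIIb, its S5 minus S1 difference being −0.08 in the LJ (adjusted p 0.897) and 0.23 in the blade (adjusted p 0.684). The mean tissue difference of −0.33 (SE 0.20, adjusted p 0.206), lower in the LJ in 8 of 10 pairs, was called with the pairs as a random block (0.0381) or fixed (0.0117). At S5 (−0.78, adjusted p 0.388) it was called with fixed pairs (0.0237).

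BEI, a branching enzyme, stayed low until S4 and stepped up at S5. The LJ held 7.16 and 6.78 FPKM at S1, 7.62 and 4.61 at S2, 10.8 and 7.15 at S3, 6.94 and 11.2 at S4, and 22.3 and 19.9 at S5. Blade BEI stood at 5.70 and 7.39 FPKM at S1, 5.89 and 6.06 at S2, 6.25 and 6.56 at S3, 6.11 and 6.06 at S4, and 27.0 and 21.4 at S5. Every S5 library lay above every earlier library of either tissue. From S1 to S5 BEI rose by 1.47 in the LJ (SE 0.28, adjusted p 0.00033) and by 1.74 in the blade (SE 0.28, adjusted p 8.67e-05), means 3.03-fold and 3.69-fold higher. From S4 to S5 it rose by 1.16 in the LJ (SE 0.28, adjusted p 0.00754) and by 1.82 in the blade (SE 0.28, adjusted p 0.00031). The LJ step was lost without LJ S4 replicate 1 (adjusted p 0.0809) or LJ S5 replicate 1 (0.0665). BEI differed between tissues at no stage by the test, and its mean difference was 0.16 (SE 0.12, adjusted p 0.327).

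BEIIa, the other branching enzyme, exceeded BEI in 20 of 20 libraries, by much at S1 and by little in the LJ at S5. LJ BEIIa stood at 44.3 and 46.6 FPKM at S1, 42.0 and 19.95 at S2, 23.2 and 17.4 at S3, 7.79 and 16.0 at S4, and 23.3 and 22.5 at S5. Its blade values were 23.6 and 40.7 FPKM at S1, 25.0 and 24.7 at S2, 16.7 and 13.1 at S3, 13.5 and 22.0 at S4, and 32.0 and 33.3 at S5. In both tissues the means were lowest at S3 or S4, and the LJ libraries of S5 lay below those of S1. The LJ fell by 0.96 from S1 to S5 (SE 0.39, adjusted p 0.0408), a 1.99-fold lower mean. That call was lost in 6 of 20 fits with 1 library left out, those of LJ S1, LJ S5 and blade S5 (adjusted p 0.051 to 0.127), and without a filter on low values (0.0501). Blade BEIIa differed by 0.07 (SE 0.39, adjusted p 0.883), and the difference between the tissues' changes was −1.03 (SE 0.55, adjusted p 0.263), so a different course in the tissues was not shown. Without LJ S4 replicate 2 a fall from S3 to S4 (−1.26, adjusted p 0.0334) and a rise from S4 to S5 (1.44, adjusted p 0.0283) were called in the LJ, against −0.79 (0.112) and 0.96 (0.0761) with all libraries. The ratio of BEI to BEIIa FPKM moved from 0.1617 and 0.1455 in LJ S1 to 0.9596 and 0.8835 in LJ S5, and from 0.2415 and 0.1815 to 0.8416 and 0.6415 in the blade.

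PHOL, the plastidic phosphorylase, showed the largest change of the set over the stages. In the LJ it stood at 26.8 and 25.8 FPKM at S1, 26.4 and 12.4 at S2, 10.8 and 25.8 at S3, 3.77 and 0.604 at S4, and 1.05 and 0.428 at S5. The blade held 15.1 and 23.6 FPKM at S1, 13.2 and 20.8 at S2, 5.19 and 17.1 at S3, 2.66 and 0.102 at S4, and 0.794 and 0.434 at S5. All 8 libraries of S4 and S5 lay below all 12 of S1 to S3. From S1 to S5 PHOL fell by 4.00 in the LJ (SE 0.66, adjusted p 0.000101), a 35.7-fold lower mean, and by 3.63 in the blade (SE 0.66, adjusted p 0.000263), a 31.5-fold lower mean. Leaving out any 1 library kept both calls, with adjusted p at most 0.00427. The fall from S3 to S4 was called in the LJ (−2.68, SE 0.66, adjusted p 0.00442) and in the blade (−2.40, SE 0.66, adjusted p 0.0118). The LJ step was lost without LJ S3 replicate 2 (0.0623) or LJ S4 replicate 2 (0.0606), and the blade step without blade S3 replicate 2 (−1.62, 0.163) or blade S4 replicate 2 (−1.53, 0.134), without both S4 replicate 2 libraries (0.0885), or with only those groups fitted (0.13). PHOL was higher in the LJ in 8 of 10 pairs, by a mean of 0.38 that was not called (SE 0.30, adjusted p 0.321).

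**Figure D2:**
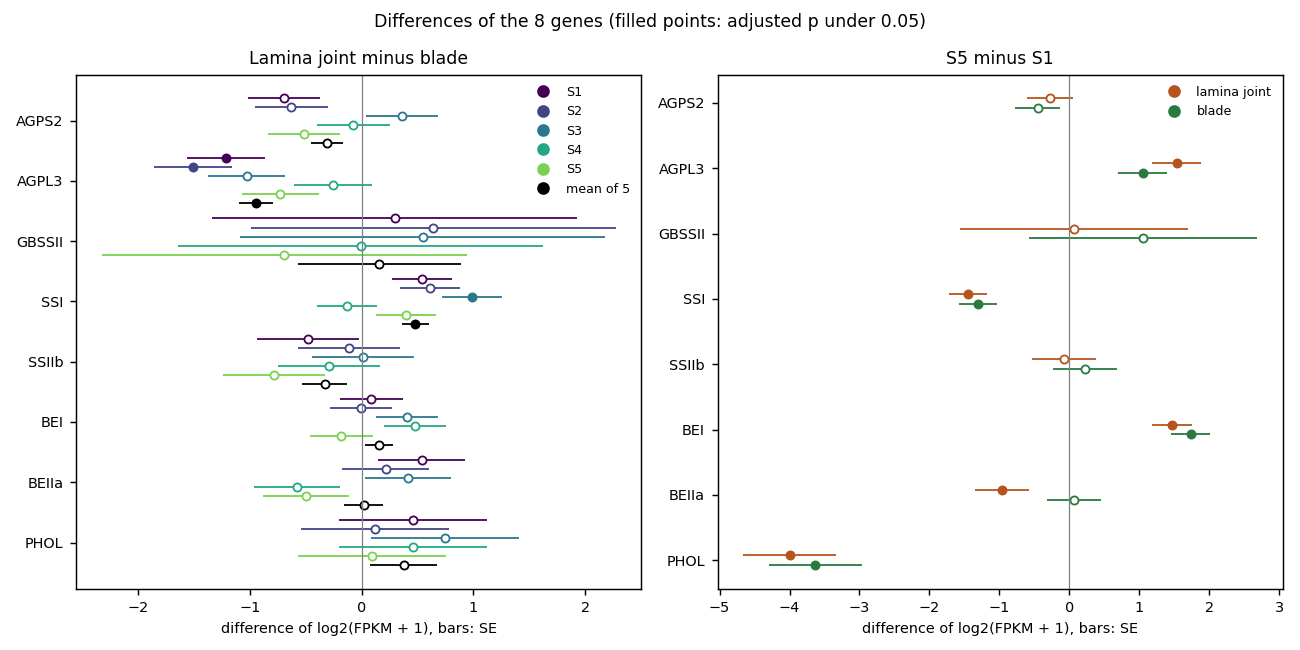
Differences of log2(FPKM + 1) for the 8 genes, with LJ minus blade at each stage and as the mean of 5 stages (left) and S5 minus S1 in each tissue (right). Bars are SE of the fit and filled points were called at an adjusted p under 0.05. On the left the filled points are AGPL3 at S1, S2 and the mean, and SSI at S3 and the mean. On the right AGPL3 and BEI are filled above 0 and SSI and PHOL below it in both tissues, with BEIIa filled in the LJ.

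Set out by stage, the tissue differences were called for 1 of 8 genes at S1 (AGPL3), S2 (AGPL3) and S3 (SSI), where 16.5%, 22.9% and 16.9% of all tested genes were called. At S4 and S5 none of the 8 was called, where 7.17% and 9.19% of all genes were. Of these 40 tests 3 were called, against 9 with the pairs as a random or a fixed block. The paired fits also called more of all genes, with 33.9% at S1, 40.2% at S2, 37.7% at S3, 19.2% at S4 and 21.1% at S5 for the random block and 33.1%, 39.5%, 37%, 18.3% and 21.3% for fixed pairs. Limma's unadjusted p was under 0.05 for 0 of the 8 at S4 and for 0 at S5. The median difference of the 8 over the 5 stages was 0.09, against 0.13 over all tested genes. Between neighbouring stages 0 of the 8 were called from S1 to S2 in either tissue (0 also at an unadjusted p under 0.05), where 1.66% of all genes were in the LJ and 2.78% in the blade. In the LJ 1 of 8 was called from S2 to S3 (23.7% of all genes), 2 from S3 to S4 (45.3%) and 1 from S4 to S5 (28.5%). In the blade the counts were 0 (10.5%), 1 (33%) and 1 (32.7%), and AGPS2 from S2 to S3 just missed (−1.05, adjusted p 0.0533). It was called with an additive replicate number (0.0424), with a filter at 5 FPKM (0.049), and without blade S4 replicate 1 (0.0362) or blade S4 replicate 2 (0.0361). The change from S1 to S5 differed between tissues for 0 of the 8 (0 also at an unadjusted p under 0.05), where 14.6% of all genes passed. A step differed between tissues for 0 of the 8 at S1 to S2 (0.114% of all genes), S2 to S3 (3.28%), S3 to S4 (5.11%) and S4 to S5 (0.36%), with an unadjusted p under 0.05 for AGPS2 from S2 to S3 (0.048) and SSI from S3 to S4 (0.0108).

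GBSSII, the granule-bound synthase of amylose, differed widely between the 2 libraries of a group. In the LJ it was listed at 40.6 and 31.8 FPKM at S1, 33.1 and 6.72 at S2, 40.5 and 5.70 at S3, 1.98 and 58.9 at S4, and 19.6 and 72.1 at S5. Blade GBSSII stood at 33.9 and 25.0 FPKM at S1, 14.8 and 5.87 at S2, 25.8 and 3.86 at S3, 1.21 and 80.9 at S4, and 26.9 and 139 at S5. Replicate 1 was the higher library at S1, S2 and S3 and replicate 2 at S4 and S5, in both tissues at 5 of 5 stages, and LJ and blade overlapped at every stage. The gene was both the highest of the set, in LJ S5 replicate 2 and blade S5 replicate 2, and the lowest, in blade S4 replicate 1. Its residual standard deviation within groups was 1.924 on the log2 scale, larger than that of 99.8% of tested genes, whose median was 0.322. Of the other members PHOL came next at 0.757 (larger than 95.3%), then SSIIb at 0.5 (82.1%) and BEIIa at 0.405 (68.7%), while AGPL3, AGPS2, BEI and SSI lay between 0.247 and 0.35.

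GBSSII passed no test with all libraries. Its S5 minus S1 difference was 0.07 in the LJ (SE 1.63, adjusted p 0.976) and 1.06 in the blade (SE 1.63, adjusted p 0.592), and its mean tissue difference was 0.16 (SE 0.73, adjusted p 0.877). With LJ and blade as fixed pairs that SE was 0.12, and the difference was still not called (adjusted p 0.287). The step from S4 to S5 in the blade was 2.22 (SE 1.63, adjusted p 0.323), became 4.83 (adjusted p 0.0486) without blade S4 replicate 2, and was −0.39 (adjusted p 0.909) without blade S4 replicate 1.

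The genes LHY, a clock factor that peaks around dawn, and PCL1, a clock factor that peaks in the evening, were looked at beside GBSSII after its values had been seen. LHY stood at 79.5 and 85.4 FPKM in LJ S1, 61.8 and 21.1 at S2, 291 and 5.09 at S3, 9.81 and 498 at S4, and 95.9 and 363 at S5. In the blade LHY was 72.4 and 59.2 FPKM at S1, 49.6 and 11.96 at S2, 302 and 8.10 at S3, 7.31 and 541 at S4, and 90.8 and 396 at S5. The library of a group with the higher LHY was also the one with the higher GBSSII in 9 of 10 groups, LJ S1 being the exception. LJ PCL1 was 18.9 and 15.6 FPKM at S1, 10.1 and 20.3 at S2, 2.67 and 91.8 at S3, 253 and 1.37 at S4, and 17.4 and 1.28 at S5. Blade PCL1 was 36.4 and 33.0 FPKM at S1, 24.3 and 38.7 at S2, 6.43 and 196 at S3, 351 and 2.79 at S4, and 18.0 and 1.79 at S5. Between replicates PCL1 ran opposite to GBSSII at S2 to S5 in both tissues and the same way at S1 in both. Over the 20 libraries log2(FPKM + 1) of GBSSII had a Pearson r of 0.920 with LHY and −0.908 with PCL1, given as descriptions, since LJ and blade of 1 stage and number vary together and are not independent. Of the other members, the direction between replicates matched that of LHY in 9 of 10 groups for AGPL3, 8 for AGPS2, SSIIb and BEIIa, 7 for SSI, 3 for BEI and 1 for PHOL. Some of these matches rest on small differences, down to 0.02 for BEIIa and 0.08 for AGPS2 on the log2 scale. Outside the set RCA matched LHY in 9 of 10 groups, OS04G0624600 in 8, and DPE2 and TPT (both described below) in 7. GBSSI, listed at 0 in most libraries, matched in 4. The share of all tested genes with such matches was not computed, and the 10 groups are not independent. The 2 S4 libraries of PHOL lay opposite to LHY in both tissues, with the low PHOL value in replicate 2. The residual standard deviations of LHY and PCL1 were 2.626 and 2.742. PRR37, another clock gene, matched the direction of LHY in 4 of 10 groups. Its residual standard deviation was 0.403, larger than that of 68.3% of tested genes. PCL1 was lower in the LJ in 10 of 10 pairs, by a mean of 0.76, which was not called without pairs (adjusted p 0.576) or with a random block (0.279) and was called with fixed pairs (2.95e-05). Of 6 IDs listed as clock genes, 3 matched a symbol in the annotation (LHY, PCL1 and PRR37). The others, OS02G0618200, OS09G0532400 and OS03G0284100, had residual standard deviations of 1.298, 0.995 and 0.51, larger than those of 99.3%, 98.2% and 83.1% of tested genes. Of the 6 IDs, 2 were called between the tissues with fixed pairs (59% of all genes), PCL1 and OS09G0532400. Without pairs (43.3% of all genes) or with the random block (59.9%) 0 were called, with 0 and 1 at limma's unadjusted p under 0.05. From S1 to S5 1 rose in the LJ (34.7% of all genes) and 0 were called in the blade (62.7%). The part of the clock state of a library in the values of the 8 genes was not tested. Leaving out both S4 replicate 2 libraries leaves 1 library in each S4 group. No result about the 8 genes is drawn from counts of called genes in that fit. In it the blade step from S4 to S5 was 4.83 for GBSSII, 1.45 for SSIIb and 1.22 for BEIIa. With all libraries these steps were 2.22, 0.94 and 0.88. The blade step of PHOL from S3 to S4 was −1.53, against −2.40 with all libraries.

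**Figure D3:**
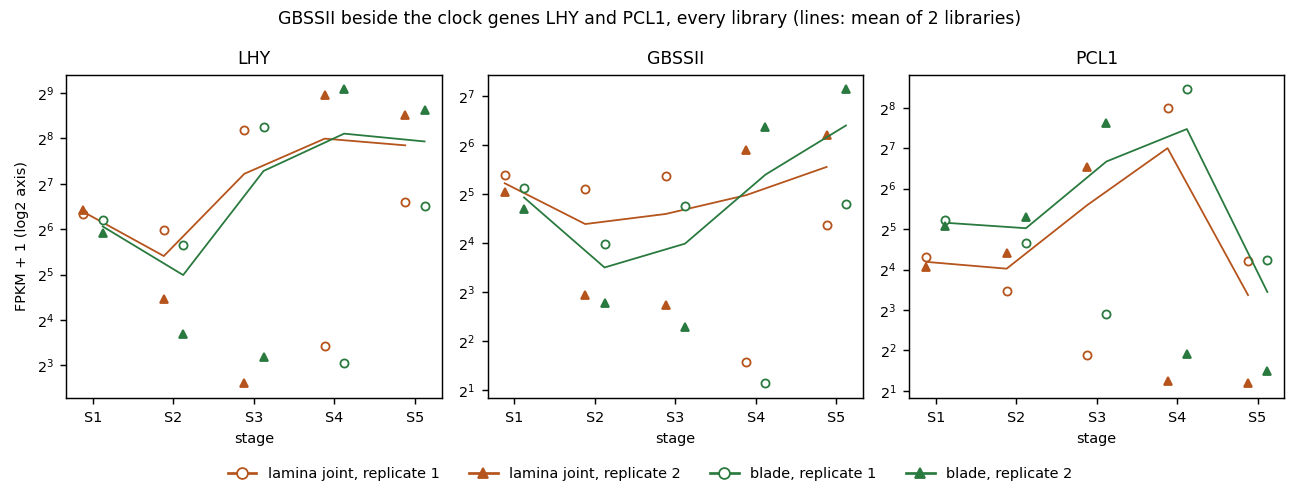
FPKM + 1 on a log2 axis for LHY, GBSSII and PCL1 in all 20 libraries by stage (brown, lamina joint; green, blade; open circle, replicate 1; filled triangle, replicate 2; lines join means of 2 FPKM values). At S3 replicate 1 is the higher for LHY and GBSSII and the lower for PCL1, and at S4 this order is turned round, in both tissues.

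Ordered by mean FPKM, the set began at LJ S1 with AGPS2 (51.0 ± 9.79, SD, n = 2) and BEIIa (45.4 ± 1.67), whose libraries overlapped. GBSSII (36.2 ± 6.16), PHOL (26.3 ± 0.686) and AGPL3 (13.0 ± 2.18) followed without overlap between neighbours. SSIIb (9.74 ± 3.39) overlapped both AGPL3 and SSI (8.72 ± 0.415), and BEI (6.97 ± 0.264) was last. At LJ S5 GBSSII (45.9 ± 37.2), AGPS2 (42.1 ± 9.37) and AGPL3 (39.7 ± 7.36) overlapped at the top. BEIIa (22.9 ± 0.564), BEI (21.1 ± 1.75), SSIIb (8.97 ± 1.26), SSI (2.61 ± 0.705) and PHOL (0.737 ± 0.437) followed, each clear of the next. Between these stages PHOL had gone from the fourth place to the last and BEI from the last to the fifth. In the blade PHOL and BEI ended in the same places. PHOL was the lowest of the set in 6 libraries, SSI in 8, BEI in 5 and GBSSII in 1.

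Another 25 IDs entered as further genes of starch metabolism and plastid transport were counted beside the 8, as 4 lists, of which 7 IDs could be matched to a symbol in the annotation. The IDs without a match are counted under the list they were entered in, and no role is claimed for them. Of 9 IDs listed as other synthesis genes, 0 had a match. Of these 9, 4 were higher and none lower in the LJ over the 5 stages (28.3% and 15.1% of all genes), with a median of 0.37. From S1 to S5 none rose and 5 fell in the LJ (34.7% and 31.2% of all genes), and 1 rose and 5 fell in the blade (27.2% and 35.6%), with medians of −1.11 and −1.27 against 0.09 and −0.18 over all genes. The medians of the 8 genes were −0.18 and 0.15, with 2 up and 3 down in the LJ and 2 up and 2 down in the blade. The highest tissue difference of that list was that of OS09G0298200, which was 1.52 higher in the LJ (SE 0.16, adjusted p 1.29e-05) and fell by 1.67 in the LJ and 3.53 in the blade from S1 to S5. OS07G0243200 fell most in the LJ, by 2.99 (SE 0.22, adjusted p 3.92e-08).

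Of 6 tested IDs listed as endosperm genes, 1 was higher and 1 lower in the LJ (28.3% and 15.1% of all genes). GBSSI passed the filter on low values only through 2 S5 libraries, so its rise to S5 is no finding. Of the 5 others 1 rose and 2 fell from S1 to S5 in each tissue. Of all genes 34.7% rose and 31.2% fell in the LJ, and 27.2% rose and 35.6% fell in the blade. GBSSI, the endosperm counterpart of GBSSII, was listed at 0 in 15 of the 16 libraries of S1 to S4 and at 0.0256 FPKM in the other one. At S5 GBSSI stood at 1.60 and 0.684 FPKM in the LJ and 1.36 and 0.771 in the blade, far below GBSSII. SSIIa, the endosperm counterpart of SSIIb, never passed 2.23 FPKM and was 0.59 lower in the LJ (SE 0.13, adjusted p 0.00232). ISA1, an isoamylase that trims misplaced branches, fell by 0.96 in the LJ (SE 0.37, adjusted p 0.0345) and by 1.42 in the blade (SE 0.37, adjusted p 0.004).

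Among 6 IDs listed as breakdown genes, 1 was higher in the LJ (28.3% of all genes). From S1 to S5 1 rose and 4 fell in the LJ (34.7% and 31.2% of all genes) and 3 fell in the blade (35.6%). DPE1, which rearranges short glucans in the plastid, was 0.84 higher in the LJ (SE 0.11, adjusted p 3.93e-05) in 10 of 10 pairs, and fell by 2.02 in the LJ and 3.06 in the blade. DPE2, its cytosolic counterpart in maltose use, differed by 0.14 in the LJ and 0.54 in the blade and was not called. Of 3 IDs listed as transporters, the triose phosphate exporter TPT rose by 2.42 in the LJ (SE 0.32, adjusted p 1.39e-05) and by 1.50 in the blade (SE 0.32, adjusted p 0.00104). TPT was 1.62 lower in the LJ than in the blade (SE 0.14, adjusted p 2.7e-06). The maltose exporter MEX1 fell by 1.13 in the LJ (SE 0.29, adjusted p 0.00341) and by 1.10 in the blade (SE 0.29, adjusted p 0.00447).

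**Figure D4:**
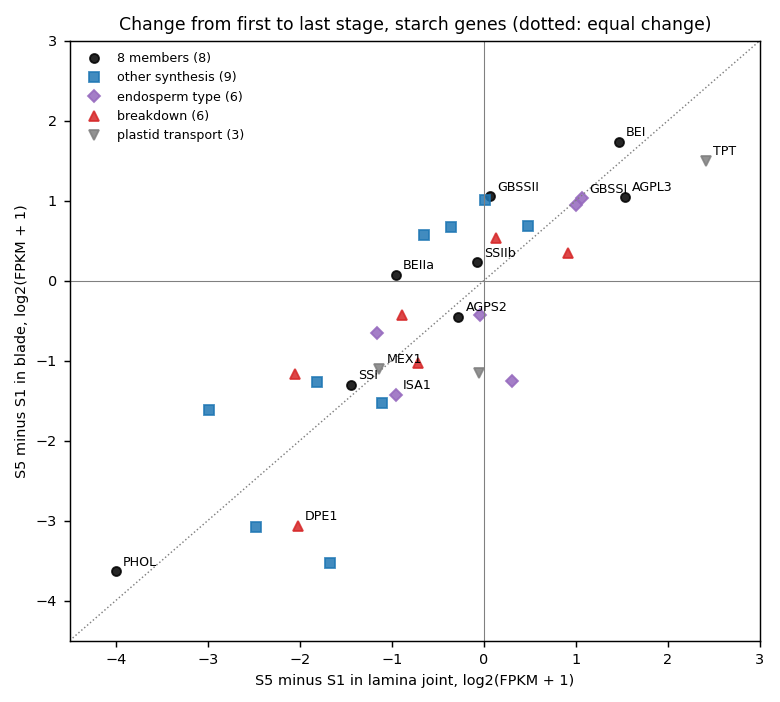
S5 minus S1 difference of log2(FPKM + 1) in the LJ (horizontal) and the blade (vertical) for the 8 genes (black) and 24 tested genes of 4 other starch lists, with equal change on the dotted line. BEI and AGPL3 lie in the upper right near TPT, and PHOL lies farthest down on the left, beyond DPE1.

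The gene most like each member was read from Pearson's r of log2(FPKM + 1) over the 10 group means, a description in which the 10 points share their libraries. AGPL3 ran closest to TPT among the members and the IDs of the starch lists (r = 0.992). BEI ran closest to GBSSI (0.960), but GBSSI passed the filter on low values only through S5 libraries, so this match is no finding. The closest ID of these to SSI was OS07G0243200 (0.965), that to PHOL was OS04G0164900 (0.933), and that to GBSSII was OS04G0624600 (0.924). SSIIb ran closest to OS10G0189100 (0.913), BEIIa to OS01G0720600 (0.889), and AGPS2 had no close neighbour in the lists, its best being OS05G0393700 at 0.509. Among all tested genes AGPL3 was closest to OS01G0978100 (0.997), PHOL to OS10G0378300 (0.997), BEI to OS02G0274900 (0.993) and SSI to OS01G0875150 (0.989). Between members, AGPL3 and SSI ran opposite over the group means (r = −0.923), and SSI and PHOL ran together (0.832).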

How the data were processed

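Per the labels' protocols, TRIzol was used for RNA extraction and an NEBNext Ultra kit for the libraries. The sources used here do not give the strand setting, so reads of overlapping or antisense genes cannot be told apart, and close members of a gene family can share reads. The deposited values are FPKM, which the authors made with CASAVA 1.8, Trimmomatic 0.36, TopHat2 2.1.1 and Cufflinks 2.2.1 on IRGSP-1.0, tools named in the submitters' processing notes without their roles. Each file listed 82632 features, of which 44803 are not rice gene IDs and were left out. Read counts are not given, so no counting intervals are printed.

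The 26403 genes that reached 1 FPKM in 2 or more libraries were fitted as log2(FPKM + 1) in limma 3.58.1 (R 4.3.3, data.table in version 1.17.8), with 10 groups in 1 fit, a mean-variance trend, 10 residual and 4.09 prior degrees of freedom, Benjamini-Hochberg adjustment and 21 comparisons. This scale understates changes of genes at low FPKM. The script was tested on simulated data. The settings varied were the pseudocount (0.1), the filter (none, or 5 FPKM), the scaling (upper quartile or quantile), the groups in the fit (those compared alone) and the replicate numbers (as an additive term, or as pairs in a random block). Each library was also left out, and the lone library of its group is then taken to vary as much as other groups do. Fixed pairs, and leaving out both S4 replicate 2 libraries, were chosen after seeing the data.

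Replicate differences between LJ and blade of 1 stage correlated across genes at 0.478 (S1), 0.213 (S2), 0.662 (S3), 0.774 (S4) and 0.516 (S5), all above 0.1, so within a stage equal numbers were taken to pair the tissues. The labels do not state such a pairing.

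The members and lists were chosen with earlier results of these data known. The IDs of the lists came from background knowledge and a symbol was used if the RefSeq annotation (assembly ASM3414082v1) places it on the same chromosome within 2% of gene order. RefSeq coordinates were not used, since the builds differ. All members are described. From each list the highest and lowest difference in the tissue mean and in both S5 minus S1 comparisons was to be named, and for each member the gene with the highest correlation over group means. Extremes without a symbol are mostly given as counts. The clock genes were picked after GBSSII values were seen. Sequences were not analysed here.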

Additional observations from a re-analysis of the deposited data

Results flagged for a closer look

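None of the 8 genes met the criteria for a closer look. Among the 24 tested IDs of the other starch lists, the change from S1 to S5 differed between the tissues, by a test of the difference itself in limma, for 4, where 14.6% of all tested genes passed. The LJ change minus the blade change was 1.87 for OS09G0298200 (adjusted p 0.0261), 1.55 for OS02G0528200 (adjusted p 0.00537), 1.11 for OS08G0187800 (adjusted p 0.0261) and −1.37 for OS07G0243200 (adjusted p 0.00749). For OS07G0243200 the step from S3 to S4 also differed, by −1.17 (adjusted p 0.0427), when the blade had already fallen to 0.164 and 0.357 FPKM at S3.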

How the results depend on the processing

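No called difference of the 8 genes changed sign under any alternative. With pairs of LJ and blade as a replicate block, random or fixed, the count of called tissue differences went from 2 to 4 for the mean and from 3 to 9 of 40 at single stages, and that of steps differing between tissues from 0 to 1. The share of all genes called for the mean went from 43.3% to 59.9% and 59%. The random block changed no call of a change within a tissue, which the fixed pairs do not estimate. Upper quartile scaling left 1 call at single stages, where 17.2%, 24.6%, 15.6%, 6.13% and 8.25% of all genes were called at S1 to S5. A fit of only the groups compared left 1 there (21.7%, 2.33%, 3.69%, 0% and 7.22%), 2 of 4 steps in the LJ and 0 of 2 in the blade. From S2 to S3 and from S3 to S4 it called 7.9% and 29.7% of all genes in the LJ, and 0% and 15% in the blade. That fit called 0 of 26403 genes from S4 to S5 in either tissue (9563 in the LJ and 8341 in the blade at an unadjusted p under 0.05), so its losses there say nothing about BEI. Blade steps numbered 6 without both S4 replicate 2 libraries. The cause was not tested. Without both of these libraries 1 library is left in each S4 group, so this count is no result about the 8 genes. Leaving out each library gave 2 to 3 calls for the mean, 2 to 4 at single stages, 4 to 5 and 3 to 4 for S5 minus S1 in the LJ and the blade, 3 to 5 LJ steps, 1 to 3 blade steps (1 without blade S3 replicate 2) and 0 to 0 for both kinds of difference between tissues. The share of all genes called also moved between these fits, so their counts are not results about the 8 genes. Quantile normalization moved the median S5 minus S1 change of all genes from 0.09 to −0.07 in the LJ and from −0.18 to 0.05 in the blade. Of 168 values of the 8 genes 20 were called. With 10 residual degrees of freedom and an unknown depth, a missed threshold does not show equal levels.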
